A study of Homo sapiens with 21 samples.

Results

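A pair of guide arrays for the RNA-cutting nuclease RfxCasR were compared, one labelled as targeting ANXA4 and one labelled as non-targeting (NT). The comparison uses 6 of the series' 21 messenger RNA libraries, the 3 labelled RfxCasR ANXA4 array and the 3 labelled RfxCasR NT array, chosen by those labels alone. All were made from HEK 293FT cells, an embryonic kidney line that carries the SV40 large T antigen, at passages 8 to 12. Both groups received plasmids expressing RfxCasR and an array through Lipofectamine 2000, and RNA was taken 48 h later. The other 15 libraries hold 3 each of RfxCasR with an NT guide RNA (gRNA) or a B4GALNT1 gRNA, and of an NT, an ANXA4 or a B4GALNT1 short hairpin RNA (shRNA), and serve here as reference levels. The series' title names the specificity of RfxCasR and matching shRNAs as its question.

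RfxCasR is a CRISPR effector of the Cas13d family that cuts RNA and leaves the genome as it is. It processes a precursor guide RNA itself, so several guides can be delivered as one array. The guides of the ANXA4 array were not used here. ANXA4 encodes annexin A4, one of a family of proteins that bind phospholipid membranes when calcium rises and that share a repeated core domain. Annexins take part in membrane repair, vesicle traffic and membrane organization.

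Levels are FPKM, the deposited fragments per kilobase of exon per M mapped. Of 27142 genes, 13679 reached 1 FPKM in at least 3 of the 21 libraries and were tested. Differences are on the log2(FPKM + 1) scale, labelled ANXA4 array minus labelled NT array, and understate the change of low genes. A gene was called at an adjusted p under 0.05 in limma fitted to the 6 libraries. The array libraries were the deeper ones, at 34.7 to 39.5 M reads as worked back from FPKM, against 21.4 to 30.7 M for the other 15. The median replicate SD was 0.10 log2 in the libraries labelled NT array and 0.08 in those labelled ANXA4 array, against 0.06 to 0.07 in the other 5 groups. For some genes all 6 array libraries, of either label, lay outside the range of the other 15. HSPA8 stood at 654 to 749 FPKM against 329 to 553, and NDRG1 at 26.7 to 37.1 against 39.8 to 79.0. The other 15 are thus reference levels and not matched controls. Of 12 genes that mark this cell line, 11 exceeded 1 FPKM in all 6 array libraries and PAX2 did not. Their summed level was 969 to 1022 FPKM in the libraries labelled ANXA4 array and 985 to 1023 in those labelled NT array. Of 19 markers of other cell types, 12 stayed under 1 FPKM in all 6, and 3 of these (CD3E, MYH7 and INS) were listed at 0. Another 4 exceeded 1 FPKM in all 6. The fibroblast markers COL1A1 and COL3A1 stood at 4.17 to 5.15 and 1.54 to 2.21 FPKM. The epithelial markers EPCAM and CDH1 stood at 1.36 to 2.48 and 1.26 to 1.87 FPKM. All 19 summed to 12.96 to 15.1 FPKM in the libraries labelled ANXA4 array and 12.1 to 13.5 in those labelled NT array. The part of these markers in any difference below was not tested.

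The target gene went against the labels. ANXA4 (NM_001153, hg19 chromosome 2, 69969106 to 70053609, plus strand, 2161 bases of exon) stood at 7.22, 6.76 and 7.12 FPKM in the 3 libraries labelled ANXA4 array. In the 3 libraries labelled NT array it stood at 3.21, 2.54 and 3.34 FPKM. The array meant to lower ANXA4 therefore carries the higher level in every library, and the groups do not overlap. The means were 7.03 ± 0.240 (SD, n = 3) and 3.03 ± 0.427, a ratio of 2.32. The difference was 1.00 log2 (SE 0.09, 95% interval 0.79 to 1.21, limma adjusted p = 0.0171). The exact two-sided permutation test gave p = 0.1, the smallest that 3 libraries against 3 allow. As labelled, ANXA4 was 132% higher with the ANXA4 array. With the 2 labels exchanged, the change would be -56.9%.

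Other ANXA4 levels can be set beside these. The 3 libraries with the NT gRNA held 7.30, 6.56 and 7.26 FPKM, and those with the B4GALNT1 gRNA 7.08, 7.60 and 7.03. None of these 6 carries a construct labelled against ANXA4, and all 6 lie with the libraries labelled ANXA4 array. The 3 libraries with the B4GALNT1 shRNA, which likewise names another gene, held 4.78, 4.65 and 5.46 FPKM, between the 2 array groups. With the NT shRNA the levels were 5.82, 6.31 and 5.57 FPKM, and with the ANXA4 shRNA 2.15, 2.56 and 2.50. By group mean, the libraries labelled NT array are closest to the ANXA4 shRNA libraries. In the authors' deposited table for this comparison, ANXA4 has a log2 fold change of -1.21 with an adjusted p of 7.53e-17, the opposite sign to the labelled columns. The 2 array labels look exchanged, but nothing in the labels says so, and each direction below is given for the libraries as labelled; it turns around if they are exchanged. In these bulk samples, less ANXA4 RNA in every cell and none in some of the cells cannot be told apart.

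**Figure D1:**
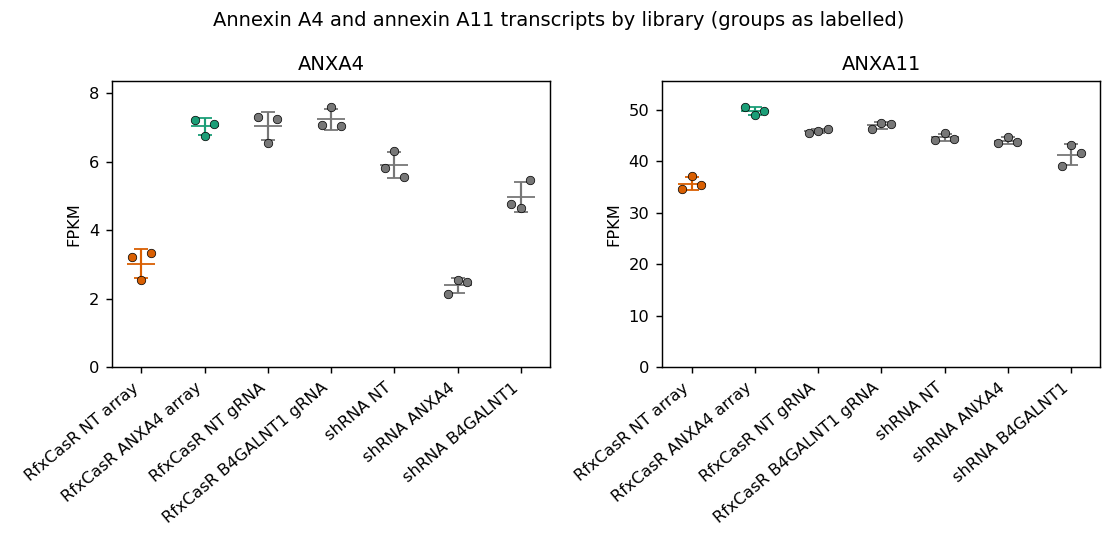
ANXA4 (left) and ANXA11 (right) in FPKM on the vertical axis, by group as labelled on the horizontal axis. Points are libraries, and the horizontal mark and bars are the mean and SD of 3; ANXA4 is high in the libraries labelled ANXA4 array (7.03 ± 0.240) and low in those labelled NT array (3.03 ± 0.427), and ANXA11 separates the same 2 groups.

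Across all genes the 2 array groups differed little. Of the 13679 genes tested, 3 were called (0.0219%), and all 3 were higher in the libraries labelled ANXA4 array: ANXA4, ANXA11 and the small nucleolar RNA SNORD18B. One limma model over all 21 libraries, whose shared spread is set mostly by the 15 tighter ones, called 39 genes, 20 higher and 19 lower, and these 3 were among them. None was lower at this threshold in limma, and 271 were lower at an unadjusted p under 0.05 (1.98%), against 446 higher (3.26%, and 5.24% in all). The 3 and 3 libraries did not overlap for 1409 genes (10.3%), 805 of them higher and 604 lower. Libraries that do not differ, 3 against 3, fail to overlap with a probability of 0.1, and this share lies close to it. Pearson's r between libraries, across genes, was 0.992 to 0.994 within the groups and 0.991 to 0.993 between them.

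Annexin A11, the second called annexin, is a calcium-dependent phospholipid-binding protein with a long amino-terminal extension and is known for tethering RNA granules to lysosomes. ANXA11 (NM_001157, hg19 chromosome 10, 81914880 to 81965328, minus strand) stood at 50.5, 49.0 and 49.7 FPKM in the libraries labelled ANXA4 array against 34.6, 37.1 and 35.3 in those labelled NT array. The other 15 libraries lay from 39.0 to 47.4 FPKM, so the first group is above all of them and the second below all of them. The means were 49.7 ± 0.753 and 35.7 ± 1.29 FPKM (SD, n = 3), a ratio of 1.39. The difference was 0.47 log2 (SE 0.05, 95% interval 0.36 to 0.58, limma adjusted p = 0.0305). With the labels exchanged, the change of ANXA11 would be -28.3%. In the authors' deposited table ANXA11 has a log2 fold change of -0.47 with an adjusted p of 2.12e-13, again of opposite sign.

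Both calls are close to the threshold. ANXA4 kept its call when replicate 2 labelled NT array was left out (limma adjusted p = 0.0388). It lost the call when any other of the 6 array libraries was left out, with limma adjusted p from 0.0620 to 0.156 and a difference from 0.98 to 1.06 log2. ANXA11 lost its call when any 1 of the 6 was left out, with limma adjusted p from 0.0532 to 0.237 and a difference from 0.45 to 0.50.

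Sequence shared by ANXA4 and the other annexins is shown as a description, since 2 of the 3 called genes are annexins. The longest run of identical bases that each coding sequence shares with that of ANXA4 was found on the sense strand, for 11582 tested genes with a GENCODE 29 coding sequence (GRCh38). ANXA11 shares 16 bases, from base 629 of its coding sequence and base 77 of the 966-base ANXA4 coding sequence. ANXA5, whose level did not pass the test, shares 17, from base 556 and base 559. The shared run is in capitals, with 12 bases on each side.
ANXA4, at the run shared with ANXA11: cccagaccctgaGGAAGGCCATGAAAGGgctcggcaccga
ANXA11: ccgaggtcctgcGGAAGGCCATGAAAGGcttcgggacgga
ANXA4, at the run shared with ANXA5: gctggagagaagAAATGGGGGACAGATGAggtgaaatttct
ANXA5: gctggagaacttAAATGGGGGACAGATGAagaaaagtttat

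A run of 16 bases or longer was found in 0.164% of the 11582 genes and one of 17 or longer in 0.0604%. The median longest run was 10 bases and the longest 18. ANXA1 and ANXA6 share 14 bases with ANXA4, ANXA3 shares 13, and ANXA2 and ANXA7 share 12. The comparison was first made on whole transcripts, taking the longest matched one per gene, of 6720 bases for ANXA11 and 2799 for ANXA4. There ANXA11 shares 21 bases with ANXA4, a length reached by 3.43% of 12555 genes. In that comparison ANXA5 shares 17 bases, a length reached by 10.4%. Coding sequences were chosen after those values were seen. A shared run is a description of the letters and not a guide site, since the guides were not used here. Annexins share a repeated core domain, and whether a shared run bears on any level was not tested.

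Of 8 annexins tested, 2 were called, the target ANXA4 itself and ANXA11, beside 0.0219% of all genes, and 6 were not. ANXA5, the most abundant of those 6 and a phosphatidylserine-binding protein, stood at 173 ± 5.90 FPKM in the libraries labelled ANXA4 array and 171 ± 9.82 in those labelled NT array (0.02 log2, 95% interval -0.10 to 0.15). ANXA1, an annexin regulated by glucocorticoids, stood at 13.2 ± 1.84 and 11.3 ± 1.13 FPKM (0.20 log2, interval -0.03 to 0.44). The differences were 0.02 log2 for ANXA2, which forms a complex with S100A10, 0.11 for ANXA3, 0.03 for ANXA6 and 0.00 for ANXA7. The median of the 8 was 0.07 log2, against 0.01 for all genes tested. None of the 5 S100 proteins tested, partners of several annexins, was called (median -0.04 log2), and none of 18 membrane repair and ESCRT-III genes (median 0.02).

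The third called gene rests on few reads and was named after its values were seen, outside the rule for named genes. SNORD18B (NR_002442, hg19 chromosome 15, 66794360 to 66794429, minus strand) is a small nucleolar RNA of 69 bases that lies within RPL4 on the same strand. It stood at 2.49, 1.97 and 2.94 FPKM in the libraries labelled ANXA4 array and was listed at 0 in all 3 labelled NT array. The levels correspond to 6, 5 and 8 recovered reads against 0, 0 and 0. The limma adjusted p was 0.00330, and no fold is given against a group listed at 0. In the other 15 libraries SNORD18B lay from 0 to 1.79 FPKM, below every library labelled ANXA4 array. RPL4, the ribosomal protein gene around it, stood at 1069 ± 12.6 and 1016 ± 6.93 FPKM (0.07 log2, not called). With voom on the recovered reads SNORD18B was not called (adjusted p = 0.356).

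Short annotations made up all of the widest differences. Of the genes tested, 14 differed by at least 1 log2, and all 14 have less than 300 bases of exon, as do 3.74% of all genes tested. ANXA4 lies just under that size. The named genes below have at least 300 bases of exon.

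**Figure D2:**
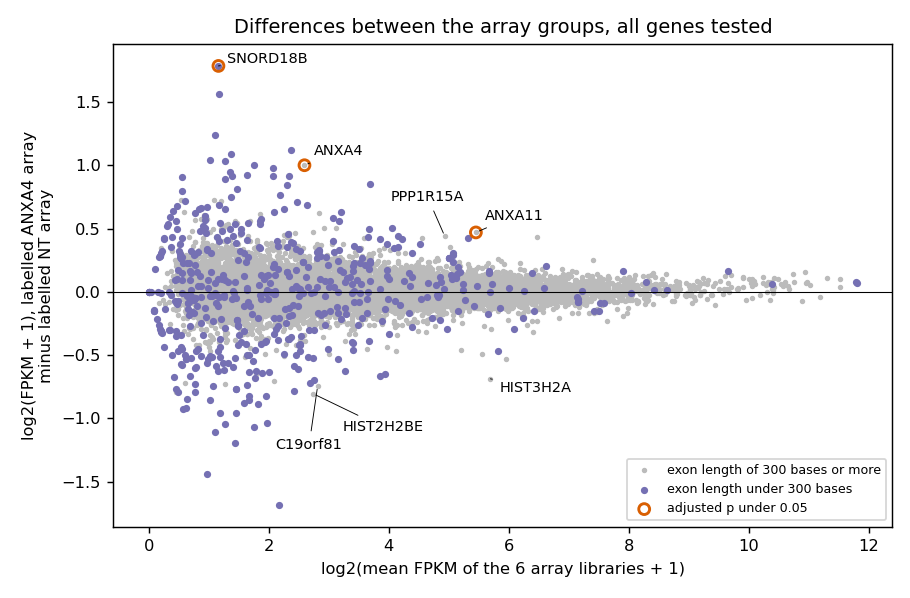
Difference between the array groups for all 13679 genes tested, log2(FPKM + 1) of labelled ANXA4 array minus labelled NT array (vertical), against log2(mean FPKM of the 6 array libraries + 1) (horizontal). Each point is a gene; circled are the 3 with an adjusted p under 0.05, and the genes with under 300 bases of exon hold all 14 differences of at least 1 log2.

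The gene nearest to the call among longer genes was PPP1R15A, which encodes GADD34, the stress-induced subunit that directs a phosphatase to eIF2 alpha. PPP1R15A (hg19 chromosome 19, 49375649 to 49379319) stood at 35.2, 33.4 and 33.8 FPKM in the libraries labelled ANXA4 array and 24.96, 26.1 and 23.8 in those labelled NT array. The 15 other libraries lay from 27.7 to 31.65 FPKM, between the 2 groups. The difference was 0.44 log2 (95% interval 0.31 to 0.56, limma adjusted p = 0.0744), which did not pass. The authors' deposited table gives PPP1R15A a log2 fold change of -0.44 with an adjusted p of 7.99e-07. Its coding sequence shares at most 11 bases in a row with ANXA4, a length reached by 42.0% of genes.

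Of 21763 genes in the authors' deposited table, 8 have an adjusted p under 0.05 (0.0368%), 4 in each direction. All 8 have the opposite sign in the labelled columns, and all 8 lie among the 39 smallest p-values here. ANXA4 and ANXA11 are the 2 that were called here as well. PPP1R15A and WDR78, a component of ciliary dynein, were higher in the libraries labelled ANXA4 array without passing here. WDR78 stood at 2.31, 2.24 and 2.23 against 1.61, 0.939 and 1.196 FPKM (0.55 log2, limma adjusted p = 0.621), and the authors' deposited table gives -0.95 with an adjusted p of 0.0343.

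On the other side of that table are 4 genes, 2 histone genes and 2 zinc-finger genes. HIST3H2A, a histone H2A gene, stood at 43.6, 38.7 and 33.7 FPKM in the libraries labelled ANXA4 array and 56.9, 70.0 and 61.2 in those labelled NT array. Its difference was -0.69 log2 (95% interval -0.92 to -0.46, limma adjusted p = 0.172), against 0.71 and an adjusted p of 3.83e-06 in the authors' deposited table. HIST2H2BE, a histone H2B gene, stood at 3.72, 4.17 and 3.54 against 5.85, 8.70 and 7.85 FPKM, a difference of -0.80 log2 (limma adjusted p = 0.255). In the authors' deposited table HIST2H2BE has 0.98 with an adjusted p of 7.99e-07. For both histone genes every array library, of either label, lies above all 15 others, which reach at most 29.3 FPKM for HIST3H2A and 2.52 for HIST2H2BE. The fixed list of replication-dependent histones holds HIST2H2BE but not HIST3H2A. None of its 17 genes tested was called, beside 0.0219% of all genes, and their median was -0.05 log2. HIST1H3D, a histone H3 gene, stood at -0.41 log2 and HIST1H1E, a linker histone gene, at 0.36.

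The last 2 genes of that table are the related zinc-finger genes ZNF503 and ZNF703. ZNF503 stood at 102, 105 and 105 FPKM in the libraries labelled ANXA4 array against 123, 119 and 121 in those labelled NT array. Its difference was -0.21 log2 (95% interval -0.31 to -0.11, limma adjusted p = 0.472), and that of ZNF703 was -0.22 (limma adjusted p = 0.635). The authors' deposited table gives ZNF503 a log2 fold change of 0.22 with an adjusted p of 0.00160 and ZNF703 0.24 with 0.0282.

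**Figure D3:**
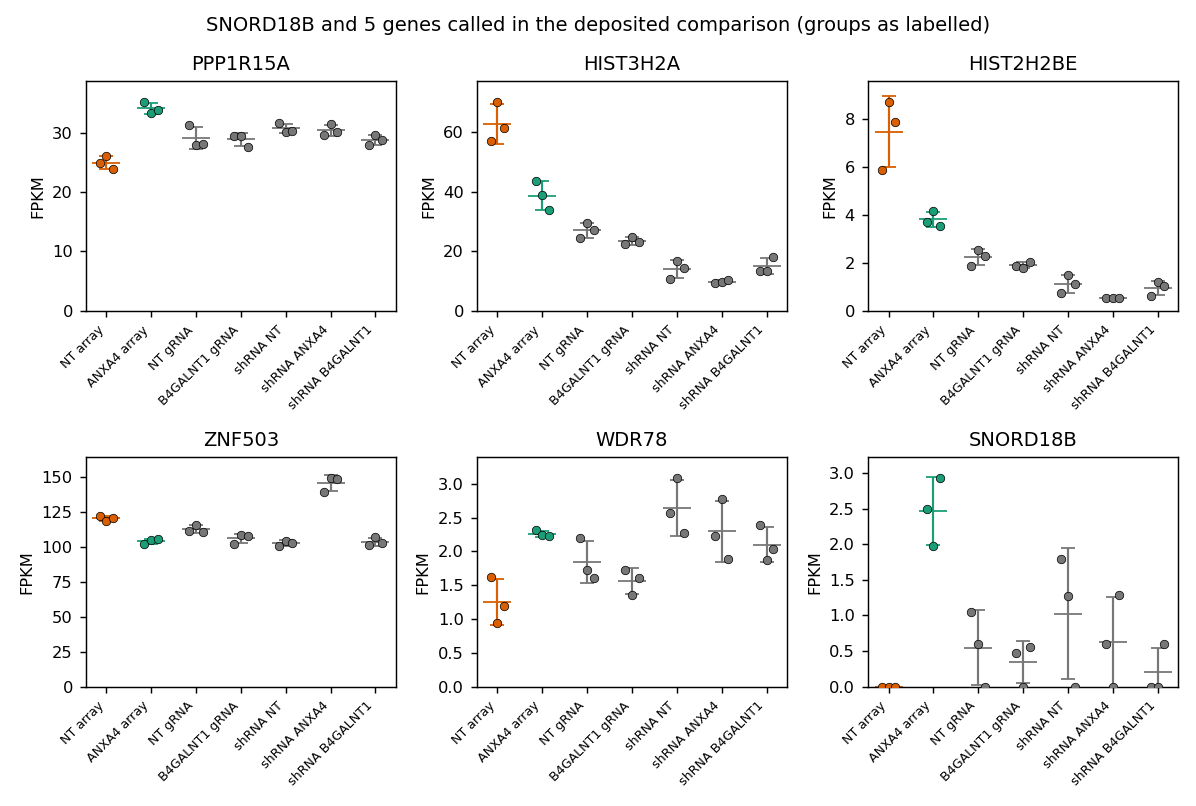
PPP1R15A, HIST3H2A, HIST2H2BE, ZNF503, WDR78 and SNORD18B in FPKM (vertical, from 0) by group as labelled (horizontal); points are libraries, marks and bars the mean and SD of 3. The 2 array groups separate in each panel, PPP1R15A lies outside the range of the other 15 libraries in both, and SNORD18B is listed at 0 in the 3 libraries labelled NT array.

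The remaining genes that the rule names did not pass. C19orf81, an uncharacterized open reading frame, stood at 3.82, 4.74 and 4.21 FPKM in the libraries labelled ANXA4 array, below all 15 other libraries, and at 6.79, 8.31 and 8.30 in those labelled NT array. Its difference was -0.74 log2 (limma adjusted p = 0.104). Higher in the libraries labelled ANXA4 array, with no overlap, were the secreted factor METRNL (0.38 log2), CCNB1IP1, an E3 ligase known from meiosis (0.26), CITED1 (0.46), the small heat shock protein HSPB8 (0.33), LYRM9 (0.39) and ART5 (0.44). METRNL stood at 9.38, 10.3 and 9.10 FPKM against 7.35, 7.28 and 6.79, the second group below all 15 others. Lower were the zinc-finger gene ZNF771 (-0.43 log2), the galactosyltransferase gene B3GALT6 (-0.31), the testis lactate dehydrogenase gene LDHC (-0.44), the RNA-binding protein gene LARP6 (-0.27) and C8orf82 (-0.34). Limma adjusted p-values for these 11 were 0.268 to 0.621. B4GALNT1, a ganglioside synthase targeted elsewhere in the series, stood at 5.30 ± 0.249 FPKM in the libraries labelled ANXA4 array and 6.21 ± 0.303 in those labelled NT array (-0.19 log2, limma adjusted p = 0.933).

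Of 25 gene lists, which held 602 distinct genes tested, 1 had a called member, the annexins, and 24 had none. With 0.0219% of all genes called, a list of this size without a called gene is near the background and says nothing particular about that list. List medians lay from -0.05 to 0.11 log2, beside 0.01 for all genes.

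The lists on responses to foreign RNA and to stress are given by their medians and widest members. Of 23 interferon-stimulated genes the median was 0.00 log2. The widest was ISG15, a ubiquitin-like modifier, at 7.96, 7.61 and 7.04 FPKM against 3.28, 6.43 and 4.36 (0.62 log2, limma adjusted p = 0.776), and IFI35 was at 0.51. Of 29 integrated stress response and amino acid genes the median was 0.04 log2, with PPP1R15A highest and CEBPB, a transcription factor, lowest at -0.24. The 22 genes of the unfolded protein response (median -0.02 log2) and 18 heat shock and chaperone genes (-0.01) lay within 0.16 log2 of 0. Of 21 immediate early genes the median was 0.05 log2, from CTGF at -0.36 to ATF3, a stress-induced transcription factor, at 0.23. The 10 NF-kB genes had a median of -0.01 log2 and the 17 NRF2 targets -0.02.

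Growth and metabolism lists were described in the same way. Of 21 p53 targets the median was 0.07 log2, with CDKN1A, the p21 cell-cycle inhibitor, highest at 0.27. Medians were 0.01 log2 for 29 genes of S phase and DNA replication, 0.01 for 26 genes of G2 and mitosis, 0.03 for 23 genes of cholesterol synthesis and 0.05 for 29 genes of hypoxia and glycolysis. The 31 proteasome subunits had a median of 0.00 log2 and the 73 nuclear subunits of oxidative phosphorylation 0.01, with ATP5D at -0.32.

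The lists of genes that act on RNA follow. Of 51 RNA decay genes the median was -0.00 log2, from EXOSC6, a subunit of the RNA exosome, at -0.26 to SKIV2L, a helicase that feeds it, at 0.20. The 14 genes of the RNA interference machinery had a median of -0.04 log2, with the small-RNA processing enzyme DICER1 at -0.11. Of 17 snoRNA host and nuclear long noncoding RNAs the median was 0.01 log2, with SNHG15 at 0.43 and limma adjusted p = 0.826. Of 79 cytosolic ribosomal proteins the median was 0.07 log2, and 16 were without overlap on the higher side and 0 on the lower, beside 5.88% and 4.42% of all genes. RPL35 stood at 1822, 1818 and 1729 FPKM against 1632, 1602 and 1640 (0.14 log2, limma adjusted p = 0.837).

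The precision of the comparison can be stated as intervals. For 13464 genes (98.4%) the 95% interval of the array difference lay within 1 log2 of 0 on both sides, and for 12542 (91.7%) within 0.5. The median interval was 0.19 log2 to each side. By level, the share within 0.5 log2 was 73.5% of 2316 genes under 2 FPKM, 91.3% of 4999 from 2 to 10, 98.3% of 4705 from 10 to 50 and 99.4% of 1659 at 50 FPKM and over. These intervals are on the log2(FPKM + 1) scale, which narrows them for low genes, so there they do not bound the fold change. A difference could thus most easily be missed in low genes, and in short ones, but not only there. PPP1R15A, HIST3H2A, ZNF503 and ZNF703 are neither, and they passed in the authors' deposited table but not here. A narrow interval does not mean that a difference would be called.

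The ANXA4 shRNA aims at the same gene and was fitted on its own 6 libraries, the 3 labelled shRNA ANXA4 and 3 labelled shRNA NT. In that fit 7252 genes were called (53%), 3581 higher (26.2%) and 3671 lower (26.8%), and ANXA4 is the 1 gene called in both comparisons. ANXA4 fell by 1.02 log2 with the shRNA (SE 0.07, limma adjusted p = 1.16e-05). The test of the difference between the array change and the shRNA change, on all 12 libraries, gave 2.02 log2 as labelled (SE 0.12, limma adjusted p = 1.76e-07). With the array labels exchanged it gave 0.02 (SE 0.12, 95% interval -0.24 to 0.28, limma adjusted p = 0.911). The method, the plasmids and the controls all differ between these groups and cannot be told apart.

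The change differed between array and shRNA for 4627 genes as labelled (33.8%) and 4610 with labels exchanged (33.7%), of which 3269 in both. ANXA11 was -0.02 log2 with the shRNA (limma adjusted p = 0.612), and its change differed by 0.49 as labelled and -0.45 exchanged (limma adjusted p = 1.79e-05 and 3.80e-05). PPP1R15A was -0.02 log2 with the shRNA, and its change differed by 0.45 and -0.42 (limma adjusted p = 0.000146 and 0.000256). Both differences pass in either reading of the labels. With shRNA changes this small they mostly restate the array differences for which these genes were named, and are not separate support. PPP1R15A did not pass between the arrays alone, and this fit also takes in the shRNA libraries, whose replicate spread is smaller.

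Among the genes called with the shRNA, 148 changed by at least 1 log2, and they were chosen on those shRNA values. Their median absolute change was 1.1403 log2 with the shRNA and their median absolute difference between the arrays 0.07. The 95% interval of the array difference lay within 1 log2 of 0 for 139 of them, and the widest array difference other than ANXA4 was 0.86. UHMK1, a kinase gene, was at 1.99 log2 with the shRNA and -0.14 between the arrays. RPLP1, a ribosomal stalk protein gene, was at -1.80 and -0.03, and LPCAT3, a lysophospholipid acyltransferase gene, at 1.73 and 0.15. These 3 were picked for their large shRNA changes after the values were seen.

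**Figure D4:**
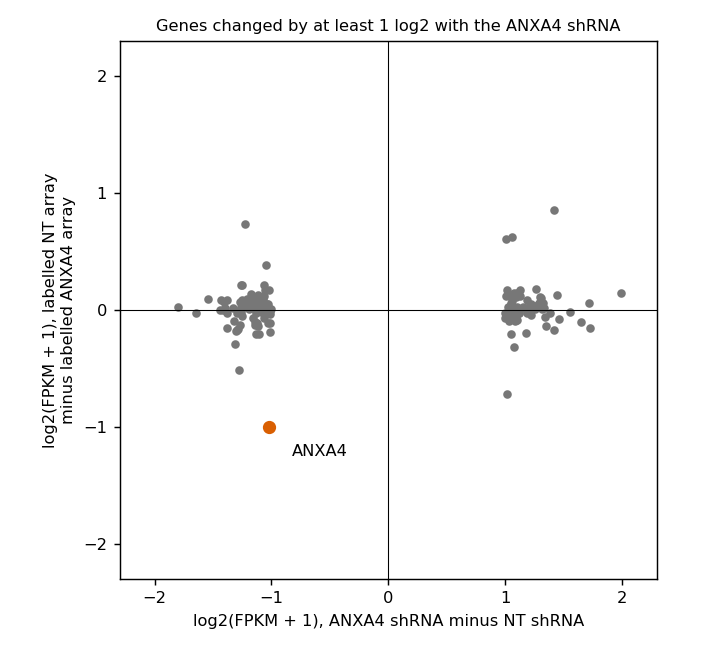
Array difference with labels exchanged, labelled NT array minus labelled ANXA4 array (vertical), against the change with the ANXA4 shRNA (horizontal), both as differences of log2(FPKM + 1), for the 148 genes changed by at least 1 log2 with the shRNA. ANXA4 lies at -1.02 on the horizontal axis and level with that on the vertical axis, and the other genes stay within 0.86 log2 of 0 on the vertical axis.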

How the data were processed

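The authors deposited FPKM values per gene. Per the file headers, HOMER counted exon reads on the sense strand and condensed transcripts to genes, with hg19. Per the submitters' processing notes, the tools were DESeq2 1.14.1, R 3.3.2, STAR, HOMER and FastQC. The authors' deposited comparison table gives for each gene a mean normalized count (a signal), the log2 fold change and its adjusted p-value; 26 names turned into dates were left out. The authors' own settings for that table are not given in the sources used here.

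FPKM values are not counts. Multiplied by exon length and depth they gave whole reads, within 0.1, for 99.9% to 100.0% of values. These recovered reads exceed the authors' mean counts, for a reason not stated. They entered only voom, as an alternative.

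Differences were fitted with limma 3.58.1 in R 4.3.3 on log2(FPKM + 1) of the 6 array libraries, with an intensity trend and Benjamini-Hochberg adjustment over 13679 genes. The test was also run on data simulated from its own fitted model, with changes set only in the better expressed genes. That run cannot show how the test does in low genes or where real libraries depart from the model. The sample titles number the replicates and say no more, and a p-value here reflects only the spread among these libraries.

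The members, gene lists, fit and rule were chosen with earlier results of these data known. Those results included a larger spread in the arrays, and fitting all 21 libraries in one model gives more calls. The rule names both target genes, up to 10 genes per direction (called ones by size, then by smallest p) among those that do not overlap and have at least 300 bases of exon and a group mean of at least 2 FPKM, up to 4 called members per list or else the 2 of smallest p, and the genes called in the authors' table. The genes whose shared sequence was compared and the figure panels were chosen after values were seen. Alternatives were other pseudocounts, filters, scalings, variance models, a replicate block, voom, a stricter threshold and leaving out each library.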

Additional observations from a re-analysis of the deposited data

Results flagged for a closer look

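The array change of 3 genes differed from their ANXA4 shRNA change in the test of that difference. These 3 were taken because they were called between the arrays, so the same array values enter both tests. For ANXA4 the difference was 2.02 log2 as labelled (limma adjusted p = 1.76e-07), and it did not pass with the labels exchanged. For ANXA11 it was 0.49 log2 as labelled (limma adjusted p = 1.79e-05) and -0.45 exchanged (3.80e-05). For SNORD18B it was 2.05 log2 as labelled (SE 0.47, limma adjusted p = 0.00498) and -1.51 exchanged (limma adjusted p = 0.0263), on at most 8 recovered reads in an array library.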

How the results depend on the processing

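The count of genes called between the arrays moved most with the choice of fit. It was 3 in the 6-library fit and 39 with all 21 libraries in one model, 20 higher and 19 lower. It was 5 with a filter of 5 FPKM, 6 with a robust prior, 5 with sample weights, 6 with voom on the recovered reads, 8 in the authors' deposited table and 1 at an adjusted p under 0.01. Leaving out 1 array library gave 1 to 2. The ANXA4 difference kept its direction in all settings, from 0.91 to 1.22 log2, and from 0.91 to 1.06 with 1 library left out. At 1.00 log2 it lost its call with a filter of 0.1 FPKM (limma adjusted p = 0.116), no filter (0.0928) and the replicate block (0.0529). ANXA11 lost its call under those 3 settings (0.0856, 0.0628 and 0.177), with median-centred libraries (0.0634) and without an intensity trend (0.234). PPP1R15A was called with all 21 libraries, a filter of 5 FPKM, a robust prior, sample weights and voom. Genes lower in the libraries labelled ANXA4 array also gained calls. HIST3H2A was called with all 21 libraries, a filter of 5 FPKM and voom, and HIST2H2BE with all 21 libraries and voom. C19orf81 was called with all 21 libraries, a filter of 5 FPKM and a robust prior. The replicate block left 2 calls, of which 1, SNORD18B, was shared with the 3. Deviations from the group mean, across genes, correlated at -0.15, -0.03 and 0.06 between same-numbered array libraries. Between differently numbered ones they correlated at -0.16 to 0.17. With so few libraries this cannot settle whether the numbers pair the samples. Genes whose change differed from the shRNA change numbered 2864 as labelled and 2810 exchanged at an adjusted p under 0.01. None of 68 genes changed sign under another setting of the fit. These are the genes the rule names other than ANXA4, with SNORD18B and the short annotation MIR4743 added. The authors' deposited table, whose signs are opposite for its 8 called genes, was not part of that count. The causes were not tested. Depth limits low and short genes, where few reads decide a value.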
